A study of Mus musculus with 20 samples.

Results

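The genes described here encode the nuclear subunits of oxidative phosphorylation in mouse pancreatic islets. They were chosen by symbol alone, as all genes named Nduf followed by a, b, c, s or v, Sdha to Sdhd, Uqcr, Cox4 to Cox8 or Atp5, and each was read by 1 probe set, the brightest on average among those annotated to a single gene. The choice gave 93 of the 19938 genes with such a probe set. A further 4 symbols that fit the names (Cox7c, Ndufb4, Ndufb4b and Ndufs5-ps) occurred only on probe sets annotated to several genes and were left out. Of the 93 genes, 81 encode subunits or their isoforms and 12 share the names but encode assembly factors or, for Cox7a2l, a protein that links complexes III and IV. Complex I contributed 41 genes, complex II 8, complex III 8, complex IV 19 and complex V, the ATP synthase, 17. Ndufa4 and its paralogue Ndufa4l2 are counted with complex IV, where the Ndufa4 protein is now placed.

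All animals carried the genetic background C57bl6/J. Islets of male donors grafted under the kidney capsule of female hosts were profiled on pregnancy day 12.5 of the host (P12.5, n = 3) and without pregnancy (NP, n = 3). Islets of female donors grafted in the same way were profiled at P12.5 (n = 3) and NP (n = 3), and, from female mice without a graft, pancreatic islets at P12.5 (n = 4) and NP (n = 4). All graft hosts, pregnant or not, had been made diabetic with streptozotocin, a toxin that kills beta cells, and only hosts whose blood glucose was restored by the graft were mated. The islet arrays carry a label that marks them as a reanalysis, so array batch and streptozotocin treatment cannot be told apart from transplantation. The labels number the arrays of each group as biological replicates. They give no ages and name no animals, so p-values cover the spread among these arrays, part of which may be technical. The values are log2 expression levels rounded to 1 decimal. Array medians were 5.9 to 6.0, replicate arrays correlated at 0.971 to 0.989, and NP islet array 1 stood apart by a maximum of 13.4, where the other arrays reached 14.4 to 14.6.

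Oxidative phosphorylation is the last stage of fuel oxidation. Complex I takes electrons from NADH and complex II from succinate, complex III passes them from ubiquinone to cytochrome c, complex IV hands them to oxygen, and complex V uses the resulting proton gradient to make ATP. In beta cells the ATP made in this way closes potassium channels and so couples glucose to insulin release. Several subunits of complexes IV and V exist as isoforms of separate genes, some of them known mainly from muscle, lung or testis.

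Nuclear genes of this pathway are known for shared promoter motifs. RefSeq promoter windows of the build GRCm38.p6, reaching from 250 bases before to 50 bases after the transcription start, were found for 77 of the 93 genes (82 windows, of 32851 in all). The letters GCATGCGC, the core of the nuclear respiratory factor 1 (NRF1) motif, occurred on either strand in 12 of the 82 windows (14.6%) and in 2.71% of all windows. CCGGAAG, the core bound by ETS factors such as GABP, occurred in 25.6% against 8.86% of all windows, AAGATGGCG (YY1) in 8.54% against 1.40%, and AAGGTCA (estrogen-related receptors) in 8.54% against 4.72%. These are matches of letters and were not tested. The 120 bases before the start, on the strand of the gene, are shown for genes that the results below turn on, with matches in capitals. They are Atp5k, Ndufs5 and Ndufa1, which were higher in P12.5 grafts, Ndufaf7, which was lower, and Atp5g1, which was higher in P12.5 islets. They lie at chr5:108434400-108434519 (minus strand), chr4:123718187-123718306 (minus), chrX:37191239-37191358 (minus), chr17:78937015-78937134 (plus) and chr11:96075632-96075751 (minus).
Atp5k: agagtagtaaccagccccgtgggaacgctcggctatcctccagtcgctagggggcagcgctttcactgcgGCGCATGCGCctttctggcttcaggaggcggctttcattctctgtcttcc
Ndufs5: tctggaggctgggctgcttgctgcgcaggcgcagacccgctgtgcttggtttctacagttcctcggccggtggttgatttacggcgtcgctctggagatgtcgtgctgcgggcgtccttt
Ndufa1: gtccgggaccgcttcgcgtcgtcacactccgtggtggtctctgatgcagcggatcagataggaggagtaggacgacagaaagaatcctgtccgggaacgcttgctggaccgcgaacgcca
Ndufaf7: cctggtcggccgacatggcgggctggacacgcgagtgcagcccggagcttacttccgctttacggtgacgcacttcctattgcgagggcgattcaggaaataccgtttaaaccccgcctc
Atp5g1: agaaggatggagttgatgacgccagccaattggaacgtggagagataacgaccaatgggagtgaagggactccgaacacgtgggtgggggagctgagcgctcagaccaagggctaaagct
In the stretch of Atp5k the capitals are overlapping NRF1 matches, 1 on each strand. The stretches of Ndufs5, Ndufa1, Ndufaf7 and Atp5g1 hold none of the 4 sets of letters. Over its whole window, Ndufs5 has 1 AAGGTCA match, and Atp5k also has 1 CCGGAAG and 1 AAGGTCA match. The whole windows of Ndufa1, Ndufaf7 and Atp5g1 hold none.

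Nearly all of the genes were measured above the low end of the arrays. The mean of 92 of the 93 lay above the lower quartile of every array (4.7 to 4.9), and Cox7b2, a testis isoform, did not reach it, at 3.5 to 4.4 in all 20 arrays. Some others lay below the array medians (5.9 to 6.0) on every array, among them Cox8c (5.1 to 5.7) and Sdhaf4 (4.8 to 5.7). Averaged over the 93 genes, the level was 7.86 ± 0.13 in P12.5 and 7.94 ± 0.11 in NP male grafts, 8.01 ± 0.11 in P12.5 and 7.88 ± 0.16 in NP female grafts (SD, n = 3 each), and 8.07 ± 0.06 in P12.5 and 7.92 ± 0.07 in NP islets (SD, n = 4 each). The P12.5 islet arrays (7.99 to 8.11) and the NP islet arrays (7.84 to 7.99) met at 7.99, and in the grafts the P12.5 and NP ranges overlapped for both donor sexes. Beta cell markers stood at 10.6 to 11.2 in every array, and P12.5 male graft array 3 was the lowest both for them and among the P12.5 arrays for the 93 genes (7.71).

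Kidney tissue is also rich in these genes, and its markers varied among grafts. The mean of 28 kidney markers was 6.44 to 8.23 in P12.5 and 6.35 to 8.11 in NP male grafts, 5.97 to 7.23 in P12.5 and 7.84 to 8.49 in NP female grafts, and 5.51 to 5.61 in all islets. In grafts of both sexes together, 22 of the 28 had a lower mean at P12.5 and 1 was called lower. Fibroblast markers (8 genes) stood at 8.51 to 10.5 in grafts and 6.18 to 6.76 in islets, immune markers (11 genes) at 7.39 to 8.42 in grafts and 6.08 to 6.31 in islets, and acinar markers (10 genes) at 5.32 to 5.69 in grafts and 7.85 to 9.50 in islets. Endothelial markers (10 genes) stood at 6.86 to 8.05 in P12.5 and 6.59 to 7.05 in NP male grafts. Markers of striated muscle (5.39 to 5.83) stayed within a narrow range. Markers of brown and white fat (7 genes) stood at 4.89 to 5.59 in grafts and 4.89 to 5.11 in islets. They thus reached higher in some grafts than in any islet array. Ucp1, the defining gene of brown fat and only 1 such marker, was at 4.5 to 4.9 on all arrays. The part of these cells in the results was not tested except where a fit with the kidney markers is given, and in bulk samples fewer cells of a type and less RNA per cell cannot be told apart.

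**Figure D1:**
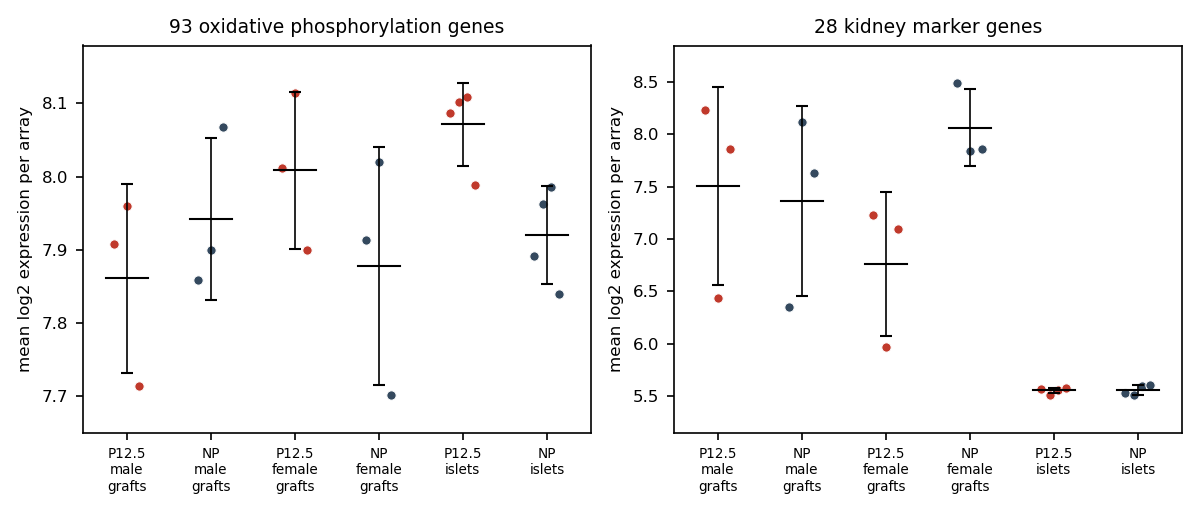
Mean log2 expression per array of the 93 oxidative phosphorylation genes (left) and of 28 kidney marker genes (right) in the 6 groups, with 1 point per array, the group mean as a horizontal line and the SD as error bars. The 4 P12.5 islet arrays lie between 7.99 and 8.11 on the left and the 4 NP islet arrays between 7.84 and 7.99, and kidney markers in NP female grafts lie between 7.84 and 8.49, above those of P12.5 female grafts.

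The first comparison asked whether the pathway differs between P12.5 and NP islets in the pancreas. The difference was small and shared by many genes. Of the 93 genes, 81 had a higher mean at P12.5 and 9 a lower one (87.1% higher), while 45.9% of all genes were higher. The median difference was 0.15 on the log2 scale, and 0 over all genes. No gene of the 93 was called, which here and below means an adjusted p under 0.05 (limma, Benjamini-Hochberg adjustment over all 35511 probe sets) and a fold change of at least 1.5, and 0.724% of all probe sets were. Without a fold minimum 3 were higher and 0 lower, against 1.09% of all probe sets higher and 0.245% lower (1.34% together), and 27 of 93 had an unadjusted p under 0.05, against 11.8% of all probe sets.

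The 3 genes that passed on the adjusted p encode small subunits of different complexes. Uqcrq, an accessory subunit of complex III near the ubiquinone site, had log2 levels of 7.5, 7.5, 7.3 and 7.2 in P12.5 islets and 6.9 in each of the 4 NP islet arrays. The difference was 0.48 ± 0.08 (SE, 1.39-fold, limma adjusted p = 0.0282). Atp5g1, one of the genes for the c subunit of the ATP synthase ring, measured 8.9, 9.1, 8.8 and 8.8 in P12.5 islets and 8.5, 8.5, 8.4 and 8.3 in NP islets. It differed by 0.48 ± 0.09 (SE, limma adjusted p = 0.0376), and a second probe set of Atp5g1 by 0.40 (adjusted p = 0.107). Ndufa3, in the membrane arm of complex I, measured 8.2, 8.2, 8.1 and 8.1 in P12.5 islets and 7.7, 7.7, 7.9 and 7.7 in NP islets (0.40 ± 0.07, adjusted p = 0.0352). In each of the 3 the groups did not overlap. When single arrays were left out, Atp5g1 passed in 0 of 8 removals and Uqcrq and Ndufa3 in 1 each, with the differences staying between 0.37 and 0.53 over the alternatives. The count of genes passing was 0 in a fit on all 20 arrays and 10 with all probe sets of a gene averaged. Averaging adjusts over genes instead of probe sets. The whole-array share passing was not counted in either setting, so these counts have no background beside them.

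The groups did not overlap for 17 of the 93 genes, all higher at P12.5, against 3.83% of all probe sets higher and 1.64% lower. Complex V held 5 of them (Atp5g1, Atp5g3, Atp5md, Atp5d and Atp5o) and complex IV 5 (Ndufa4, Cox5b, Cox6c, Cox8a and Cox6b1). By complex the median difference was 0.14 over the 34 subunits of complex I, 0.11 over the 4 of complex II, 0.18 over the 8 of complex III, 0.16 over the 18 of complex IV and 0.20 over the 17 of complex V. All 8 complex III subunits, 32 of 34 in complex I and 16 of 17 in complex V had a higher mean at P12.5. Assembly factors (11 genes) had a median of 0.10, with 7 higher and 3 lower.

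Within complex IV the general subunits and the isoforms known mainly from single tissues are given apart, with no test between them. All 10 general subunits had a higher mean in P12.5 islets (median 0.30), led by Ndufa4 (0.40, adjusted p = 0.0519), Cox5a (0.35, adjusted p = 0.338) and Cox7b (0.35, adjusted p = 0.173). Ndufa4 measured 9.9, 9.8, 9.9 and 9.8 in P12.5 islets and 9.3, 9.5, 9.6 and 9.4 in NP islets, with no overlap. Among the 8 restricted isoforms 4 were higher and 3 lower (median 0.01). The catalytic and core genes had values on both sides of the median of the 93 genes, and the 6 core subunits of complex I had a median of 0.14, as had all subunits of that complex. The ATP synthase subunits Atp5a1 (alpha) and Atp5b (catalytic beta) differed by 0.10 and 0.18, Ndufs1 and Ndufv1, which carry electrons through the matrix arm of complex I, by 0.05 and 0.13, and the complex III genes Uqcrc1 and Uqcrfs1 by 0.18 and 0.10. The succinate-oxidising flavoprotein gene Sdha stood at -0.05, Sdhb at 0.20 and Cox4i1 at 0.10, and none of these passed. The lowest values were those of the assembly factor Ndufaf6 (-0.18), Ndufa4l2 (-0.15) and, tied, Cox8c and Sdhaf4 (-0.13 each), none of which passed (adjusted p from 0.549 to 0.667).

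Other genes of mitochondrial fuel oxidation were read as fixed lists. Of 17 genes of the citric acid cycle and pyruvate dehydrogenase, 16 had a higher mean at P12.5 (median 0.10), as had 14 of 20 partners of the chain outside the named set, such as cytochrome c (median 0.10), and 20 of 25 further assembly factors (median 0.13). Glycolysis genes had 6 of 12 higher (median 0.05), and regulators of mitochondrial biogenesis 4 of 14 (median -0.03). The 2 mitochondrially encoded subunits measured had a median of 0.01. None of the genes in these lists passed the adjusted p. When single islet arrays were left out, 79 to 85 of the 93 genes stayed higher at P12.5 and the median stayed between 0.13 and 0.18, which includes leaving out NP islet array 1 (82 higher). In the same arrays 9 of 10 acinar markers and 8 of 8 fibroblast markers had a lower mean at P12.5 (median -0.14 each), with acinar markers at 8.34 to 9.50 in P12.5 and 7.85 to 9.50 in NP islets, and their part in the result was not tested.

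In grafts of female donors the pregnancy differences were wider and less uniform. Of the 93 genes, 61 had a higher mean at P12.5 and 26 a lower one (65.6% higher), with a median of 0.13 against 0.03 over all genes. Ndufb9, Atp5k and Ndufs5 were called higher and the assembly factor gene Ndufaf7 lower, 4 of 93, against 1.70% of all probe sets (0.836% higher and 0.859% lower). Groups did not overlap for 20 genes higher and 6 lower at P12.5, 26 in all, against 21.1% of all probe sets. The median was 0.17 over complex I subunits (22 of 34 higher), -0.08 in complex II, 0.18 in complex III, 0.08 in complex IV and 0.20 in complex V (14 of 17 higher), and -0.07 over the assembly factors.

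Ndufb9, a LYR-motif subunit in the membrane arm of complex I (probe set 10424340), gave the largest difference of the 93 genes in this comparison. It measured 8.1, 8.3 and 8.1 in P12.5 female grafts and 7.2, 7.4 and 7.0 in NP female grafts, with no overlap between the groups. The difference was 0.97 ± 0.16 (SE, 1.95-fold, limma adjusted p = 0.0201). Atp5k, the e subunit at the dimer interface of the ATP synthase (probe set 10532164), measured 7.5, 7.7 and 7.6 in P12.5 and 6.8, 7.1 and 6.7 in NP female grafts (0.73 ± 0.13, 1.66-fold, adjusted p = 0.0217). Ndufs5, on the intermembrane space side of complex I, measured 8.0, 8.1 and 8.2 in P12.5 and 7.7, 7.5 and 7.3 in NP female grafts (0.60 ± 0.14, 1.52-fold, adjusted p = 0.0481). The arrays of these genes did not overlap between P12.5 and NP. Ndufaf7, an assembly factor of complex I, measured 7.2, 7.3 and 7.0 in P12.5 and 7.7, 7.8 and 7.9 in NP female grafts (-0.63 ± 0.14, adjusted p = 0.0481).

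Ndufa1 and Cox7a2l had large values but did not pass. Ndufa1, a small membrane arm subunit of complex I, differed by 0.80 ± 0.22 (adjusted p = 0.0826) and Cox7a2l by 0.60 ± 0.14 (adjusted p = 0.0561). Among the c subunit genes the values were 0.50 for Atp5g2, 0.37 for Atp5g1 and 0.13 for Atp5g3. Of the core genes, Cox5a (0.43), Uqcrfs1 (0.33), Cox4i1 (0.30) and Atp5b (0.20) had positive values and Sdha (-0.37), Ndufs1 (-0.23), Atp5a1 (-0.10), Ndufv1 (-0.07) and Uqcrc1 (-0.07) negative ones, none with an adjusted p under 0.13. The next lowest genes after Ndufaf7 were Ndufa2 (-0.50) and the assembly factor Ndufaf1 (-0.43). None of the 17 citric acid cycle genes passed (10 higher, median 0.03), nor did any of the 12 glycolysis genes (6 higher).

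The calls in female grafts depended on single arrays. With 1 array left out the count was 0 in 5 of the 6 removals and 2 (Ndufb9 and Atp5k) without NP female graft array 2. The differences themselves kept their sign in every removal, between 0.87 and 1.07 for Ndufb9, 0.65 and 0.85 for Atp5k, 0.50 and 0.70 for Ndufs5, and -0.70 and -0.55 for Ndufaf7. In the same arrays 24 of 28 kidney markers had a lower mean at P12.5 (median -1.38). With the mean of the kidney markers as a covariate 0 genes were called, and 63 of 93 had a positive value, at 0.87 for Ndufb9, 0.67 for Atp5k, 0.50 for Ndufs5 and -0.74 for Ndufaf7. That mean did not overlap between P12.5 (5.97 to 7.23) and NP female grafts (7.84 to 8.49), so the lost calls cannot be read as an effect of kidney tissue.

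**Figure D2:**
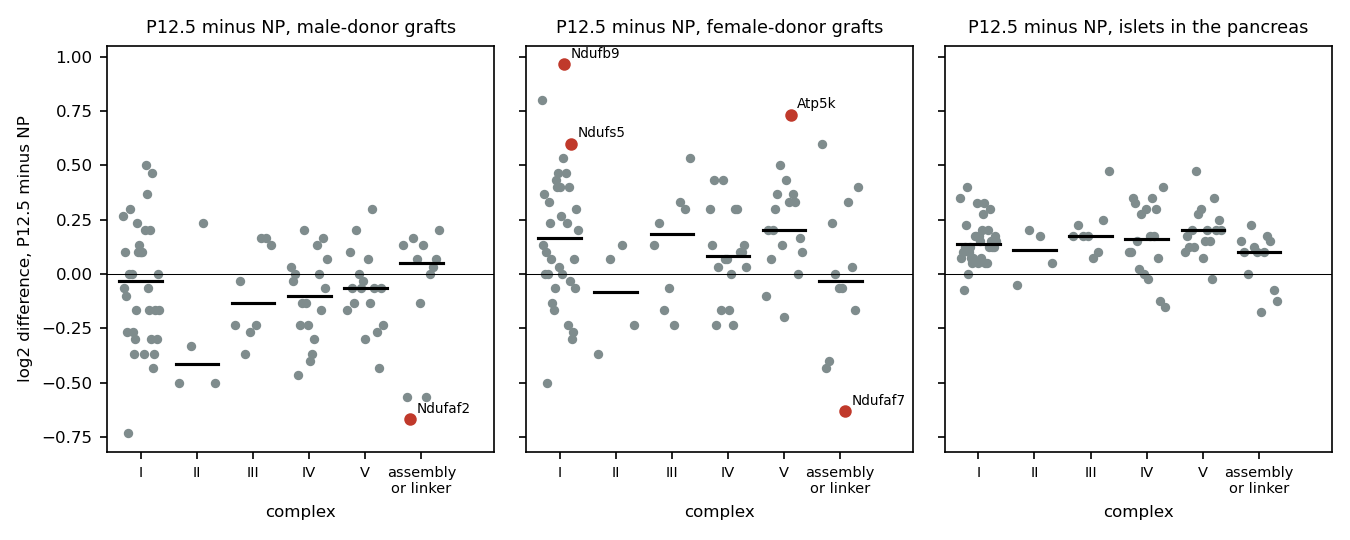
Log2 difference of P12.5 minus NP for each of the 93 genes (points) by complex, in male-donor grafts, female-donor grafts and islets in the pancreas, with the median of each column as a black line and called genes in red with their names; the last column of each panel holds the 11 assembly factors and the linker Cox7a2l. In islets 81 of the points lie above 0, in female grafts 61 and in male grafts 34.

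In grafts of male donors the sign balance ran the other way. Of the 93 genes, 34 had a higher mean at P12.5 and 52 a lower one, with a median of -0.07 against 0 over all genes. The assembly factor gene Ndufaf2 was called lower and no gene higher, against 0.932% of all probe sets (0.479% higher and 0.453% lower). It measured 5.7, 5.8 and 5.5 in P12.5 and 6.4, 6.2 and 6.4 in NP male grafts, a difference of -0.67 ± 0.12 (SE, limma adjusted p = 0.0319) with no overlap. The Ndufaf2 values on all graft arrays lay near the array medians of 5.9 to 6.0. Ndufaf2 was called in 0 of 6 removals of an array, at values between -0.73 and -0.58. Groups did not overlap for 2 genes higher (Atp5k and Ndufs5) and 11 lower (8.72% and 9.38% of all probe sets), and the lower ones included Ndufa2, Ndufaf1, Ndufaf7, Cox5b, Sdha and Ndufs7.

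Complex II had the lowest median in male grafts, -0.42 over its 4 subunits. Sdha measured 9.9, 9.8 and 9.7 in P12.5 and 10.0, 10.4 and 10.5 in NP male grafts (-0.50, adjusted p = 0.110). Its groups did not overlap, with NP array 1 just above the highest P12.5 array. The membrane anchor Sdhd stood at -0.50 and Sdhb, the iron-sulphur subunit, at -0.33 (adjusted p = 0.226), while the other membrane anchor, Sdhc, stood at 0.23 (adjusted p = 0.507). The medians of the other complexes were -0.03 (I), -0.13 (III), -0.10 (IV) and -0.07 (V), and 0.03 for the assembly factors. Ndufb9 (0.50, adjusted p = 0.133), Ndufs5 (0.47, adjusted p = 0.112) and Ndufc1 (0.37) had the largest positive values, and Ndufa2 (-0.73, adjusted p = 0.0841) the largest negative one. All 12 glycolysis genes had a lower mean at P12.5 (median -0.20), as had 13 of 17 citric acid cycle genes (median -0.13), with none passing in either list. All 10 endothelial markers had a higher mean at P12.5 (median 0.55), and their part in the result was not tested. The balance in male grafts depended on single arrays and on scaling. Without P12.5 array 3 it was 44 higher and 45 lower, without NP array 3 it was 44 and 47, and with array medians subtracted, which moved the median of all genes to -0.10, it was 22 and 65.

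Taking grafts of both donor sexes together (6 arrays against 6) gave more precise differences. Ndufb9 was called higher and Ndufa2 and Ndufaf7 lower, against 3.96% of all probe sets (1.97% higher and 2.00% lower). Without a fold minimum 8 genes were higher and 6 lower, 14 of 93, against 13.0% of all probe sets (6.90% and 6.06%), so this share was near that of the whole array. The median was 0.03 (0.02 over all genes), with 52 genes higher and 39 lower. This balance turned to 39 and 53 with array medians subtracted and to 45 and 47 without NP female graft array 3. Of the 14, 10 belong to complex I, which holds 41 of the 93 genes, and no test was made of this share. These 10 are the subunits Ndufb9, Ndufs5, Ndufa1, Ndufb10 and Ndufa5, all higher, the subunits Ndufa2 and Ndufs7, both lower, and the assembly factors Ndufaf1, Ndufaf2 and Ndufaf7, all lower. The other 4 were Atp5k, Cox7a2l and Cox6b1, all higher, and Sdha, which was lower. A second probe set of Cox7a2l differed by 0.35 and did not pass (limma adjusted p = 0.140).

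Ndufb9 measured 8.0, 8.0 and 7.5 in P12.5 male grafts and 7.3, 7.2 and 7.5 in NP male grafts, next to the female grafts given above. P12.5 male array 3 and NP male array 3 shared the value 7.5, and elsewhere all P12.5 grafts lay above all NP grafts. The difference over both sexes was 0.73 ± 0.11 (SE, 1.66-fold, limma adjusted p = 0.00458), and it was called in 12 of 12 removals of an array. Ndufs5 measured 7.9, 8.2 and 7.8 in P12.5 and 7.6, 7.5 and 7.4 in NP male grafts (both sexes 0.53 ± 0.10, adjusted p = 0.00837). Atp5k measured 7.5, 7.4 and 7.2 in P12.5 and 7.1, 7.0 and 7.1 in NP male grafts (both sexes 0.52 ± 0.09, adjusted p = 0.00714). Ndufs5 and Atp5k were the 2 genes of the 93 for which all 6 P12.5 grafts lay above all 6 NP grafts, against 2.32% of all probe sets. Neither reached the fold minimum over both sexes.

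On the lower side, Ndufaf7 measured 7.1, 7.3 and 6.8 in P12.5 and 7.5, 7.6 and 7.8 in NP male grafts (both sexes -0.60 ± 0.10, 1.52-fold, adjusted p = 0.00676). Ndufaf1 measured 6.8, 6.5 and 6.9 in P12.5 and 7.1, 7.4 and 7.4 in NP male grafts, and 6.9, 6.9 and 6.8 in P12.5 and 7.2, 7.5 and 7.2 in NP female grafts (both sexes -0.50 ± 0.10, adjusted p = 0.0111). Ndufaf2 measured 5.6, 5.9 and 5.8 in P12.5 and 6.1, 6.3 and 6.1 in NP female grafts (both sexes -0.53 ± 0.09, adjusted p = 0.00578). For these 3 assembly factor genes all 6 P12.5 grafts lay below all 6 NP grafts, against 1.85% of all probe sets. Of the 7 complex I assembly factors, the other 4 did not pass. Ndufa2, a matrix arm subunit with a thioredoxin-like fold, measured 7.2, 7.4 and 7.0 in P12.5 and 7.6, 8.0 and 8.2 in NP male grafts, and 7.4, 7.6 and 7.1 in P12.5 and 7.8, 8.1 and 7.7 in NP female grafts. Within each donor sex its groups did not overlap, and over both sexes the difference was -0.62 ± 0.13 (SE, 1.53-fold, adjusted p = 0.0158). Sdha stood at -0.43 ± 0.10 (adjusted p = 0.0220).

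The passing genes differed in how far they rested on single arrays. Ndufb9, Atp5k, Ndufs5, Ndufa2, Ndufaf1, Ndufaf2 and Ndufaf7 kept an adjusted p under 0.05 in 12 of 12 removals and Sdha in 10, while Cox7a2l kept it in 4, Ndufa1, Ndufa5, Ndufb10 and Ndufs7 in 3 each, and Cox6b1 in 1. The calls of Ndufa2 and Ndufaf7, which lie close to the fold minimum, held in 8 of 12 removals each, and without P12.5 female graft array 3 Ndufb9 alone was called. With the kidney markers as a covariate 7 of the 93 genes passed (3 higher and 4 lower), and with array medians subtracted 3 passed as higher and 9 as lower. A fit on all 20 arrays gave 26 passing (16 higher and 10 lower). Whole-array shares passing the adjusted p alone were not counted in these settings. Subtracting array medians also moved the calls over all probe sets, from 1408 (49.6% higher) to 1602 (32.8% higher). Citric acid cycle genes had 1 of 17 passing as higher and 3 as lower, and glycolysis genes 0 of 12 as higher and 2 as lower.

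**Figure D3:**
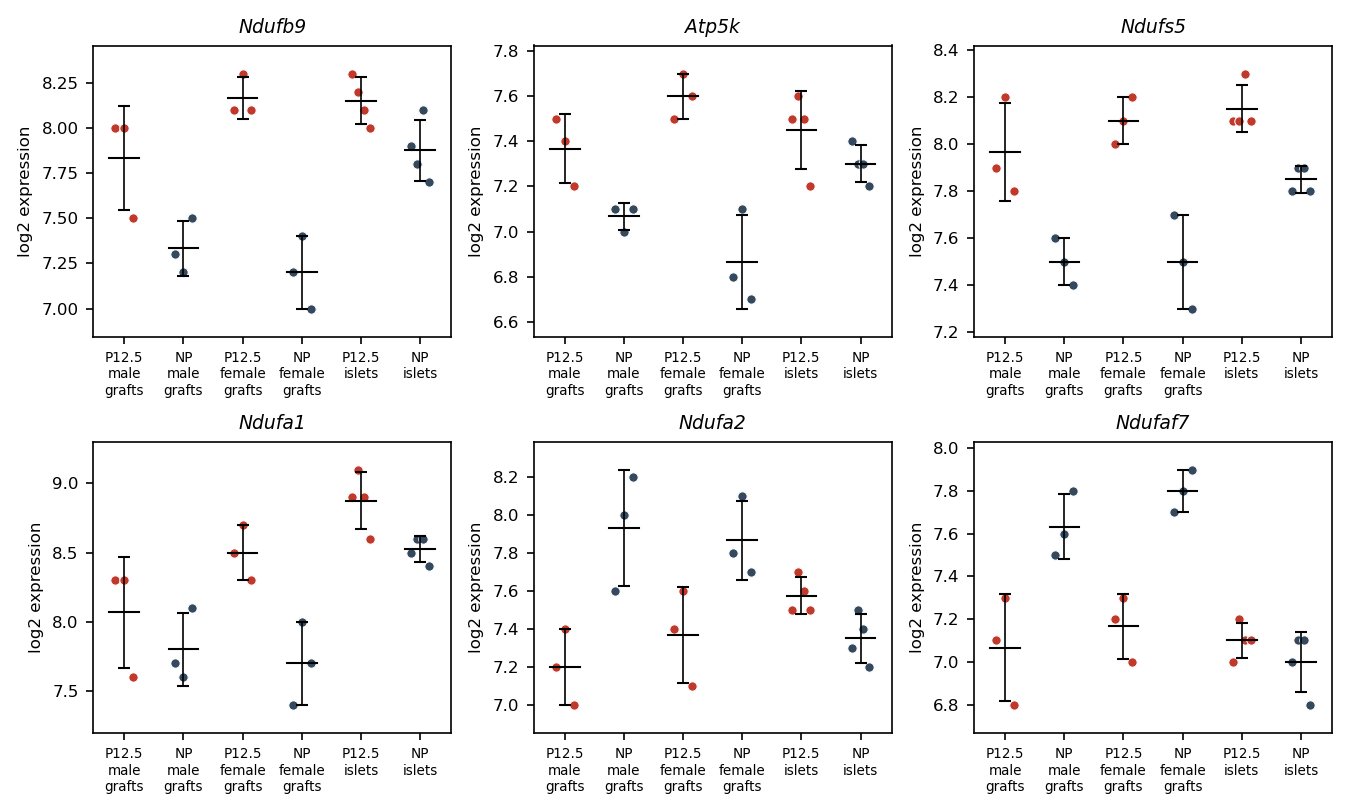
Log2 expression of Ndufb9, Atp5k, Ndufs5, Ndufa1, Ndufa2 and Ndufaf7 on each array (points) in the 6 groups, with the group mean as a line and the SD as error bars. In female grafts Ndufb9 lies between 8.1 and 8.3 at P12.5 and between 7.0 and 7.4 in NP, and Ndufaf7 between 7.0 and 7.3 at P12.5 and between 7.7 and 7.9 in NP.

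The pregnancy values in islets and in female grafts were set against each other in a test of the difference itself. No gene of the 93 was called, against 0.0507% of all probe sets, and 13 of 93 had an unadjusted p under 0.05, against 14.1% of all probe sets. The largest values, graft minus islet difference, were 0.69 for Ndufb9 (limma adjusted p = 0.157), 0.58 for Atp5k (adjusted p = 0.146) and 0.53 for Sdhaf4 (adjusted p = 0.219). The lowest were -0.73 for Ndufaf7 (adjusted p = 0.107), -0.73 for Ndufa2 (adjusted p = 0.164) and -0.58 for Cox7b (adjusted p = 0.201). The Cox7b probe set used differed by -0.23 in female grafts and 0.35 in islets, and its other probe set by 0.13 and 0.30. The Sdhaf4 probe set used differed by 0.40 in female grafts and -0.13 in islets, and its other probe set by 0.33 and 0.15. Over the 93 genes 44 were positive and 47 negative.

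The grafts also allowed a comparison of donor sex in hosts that were all female. At P12.5, 87 of the 93 genes had a lower mean in male than in female grafts and 5 a higher one, with a median of -0.13 against -0.03 over all genes. All 34 complex I subunits, all 4 of complex II and all 8 of complex III were lower, and of complex V 16 of 17. No gene was called, against 0.0113% of all probe sets, and 2 of 93 had an unadjusted p under 0.05, against 3.58%. The lowest values were -0.43 for Ndufa1, -0.37 for Cox7a2l and -0.33 each for Atp5g2 and Ndufb9 (adjusted p = 0.978 each). Atp5g2 measured 9.7, 9.8 and 9.4 in male and 9.9, 10.1 and 9.9 in female grafts at P12.5. The groups did not overlap for 6 genes, all lower in male grafts (Atp5g2, Ndufa7, Ndufb7, Ndufb9, Ndufb10 and Uqcr11), against 2.55% of all probe sets (2.86% were higher without overlap). With single arrays left out 72 to 89 of the 93 genes were lower. All 14 beta cell markers had a lower mean in the male grafts too (median -0.10), while 25 of 28 kidney markers had a higher one (median 0.60), and their part in the result was not tested.

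Without pregnancy the balance was the other way and weaker. Of the 93 genes, 64 had a higher mean in male than in female NP grafts and 20 a lower one (median 0.07, and 0 over all genes), with 0 called by limma, against 0.0141% of all probe sets, and 0 at an unadjusted p under 0.05, against 1777 of the 35511 probe sets. For none of the 93 genes were the NP groups free of overlap (3.38% of all probe sets higher and 2.24% lower). Atp5md, a small Fo subunit, and Cox5a had the highest values (0.30 each) and Cox6a2 the lowest (-0.27). The count turned to 34 higher and 51 lower without NP female graft array 3, and was 46 and 41 without NP male graft array 3. All 28 kidney markers were lower in male NP grafts (median -0.70), and their part in the result was not tested. In the test of the difference between male and female grafts in their pregnancy values, 80 of the 93 genes were negative (median -0.23, and -0.03 over all genes), all 17 of complex V among them, with 0 called here and 0.00% of all probe sets. The lowest were Atp5md (-0.60), Atp5g2 (-0.57, unadjusted p = 0.0436, adjusted p = 0.955) and Ndufa1 (-0.53). All 28 kidney markers were positive in the same test (median 1.27), and with them as a covariate 76 of the 93 genes were negative.

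**Figure D4:**
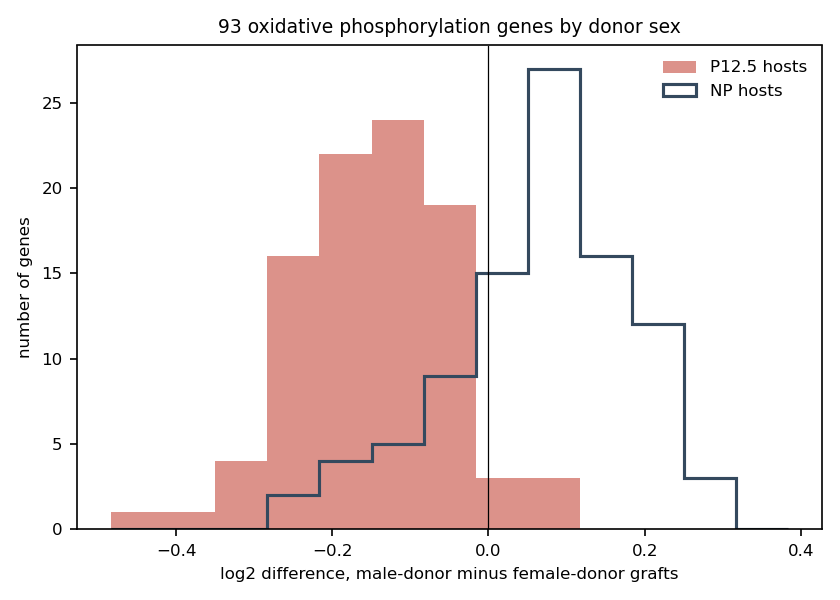
Distribution over the 93 genes of the log2 difference of male minus female grafts, in P12.5 hosts (filled) and NP hosts (outline), as numbers of genes per bin. At P12.5 87 of the genes lie below 0, and in NP hosts 20 do.

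The last comparison set grafts against islets that had stayed in the pancreas, in females. In NP mice, Ndufaf7 was called higher in grafts and Ndufa1, Ndufb9, Sdhaf4 and Atp5l lower, 5 of 93, against 11.0% of all probe sets (5.99% higher and 5.02% lower). Without a fold minimum 10 genes were higher and 18 lower, 28 of 93, against 28.5% of all probe sets (10.6% and 17.9%), so the share of calls lay below that of the whole array and the second share near it. Groups did not overlap for 8 genes higher and 13 lower in grafts (11.6% and 17.8% of all probe sets).

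Ndufa1 measured 7.4, 8.0 and 7.7 in NP female grafts and 8.5, 8.6, 8.6 and 8.4 in NP islets, with no overlap (-0.83 ± 0.18, SE, 1.77-fold, limma adjusted p = 0.00324). Ndufb9 measured 7.2, 7.4 and 7.0 in NP female grafts and 7.9, 7.8, 8.1 and 7.7 in NP islets (-0.68 ± 0.14, 1.60-fold, adjusted p = 0.00184). Ndufaf7 measured 7.7, 7.8 and 7.9 in NP female grafts and 7.0, 7.1, 7.1 and 6.8 in NP islets (0.80 ± 0.12, adjusted p = 0.000193). In these 3 genes the NP grafts stood away from the NP islets on the side opposite to their pregnancy difference in grafts. Both comparisons share the NP female grafts, so the opposite signs are no separate result.

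Sdhaf4, an assembly factor of complex II, measured 5.2, 4.8 and 4.9 in NP female grafts and 5.7, 5.7, 5.6 and 5.5 in NP islets (-0.66 ± 0.13, adjusted p = 0.00122), but its second probe set differed by -0.15 (adjusted p = 0.352). The Sdhaf4 values lay below the array medians of 5.9 to 6.0. Atp5l, the g subunit at the dimer interface of the ATP synthase, measured 8.2, 8.4 and 7.6 in NP female grafts and 8.5, 8.8, 8.7 and 8.7 in NP islets (-0.61 ± 0.17, adjusted p = 0.0153), and its 5 other probe sets differed by -0.56 to -0.38. When single arrays were left out, the calls of Ndufa1 and Ndufaf7 held in 7 of 7 removals, those of Ndufb9 and Sdhaf4 in 6 and that of Atp5l in 5, and the count of calls was 8 without NP female graft array 2. Without NP female graft array 3 the signs were 52 higher and 39 lower, against 40 and 52 with all arrays. In the same arrays 23 of 28 kidney markers were called higher in grafts (median 2.55), and with their mean as a covariate 0 of the 93 genes were called, at values of 1.01 for Ndufaf7, -0.47 for Ndufa1, -0.48 for Ndufb9, -0.44 for Sdhaf4 and -0.42 for Atp5l. That mean did not overlap between NP female grafts (7.84 to 8.49) and NP islets (5.51 to 5.61), so the fit could hardly separate it from the group. The lost calls therefore cannot be read as an effect of kidney tissue.

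By role, the 28 accessory subunits of complex I had 8 higher and 19 lower in NP grafts (2 and 9 of them passing the adjusted p), and the 6 core subunits 3 and 3. The 7 complex I assembly factors had 5 higher and 2 lower, with Ndufaf7, Ndufaf1 (0.40) and Ndufaf2 (0.32) passing. In complex IV, 8 of the 10 general subunits were higher (median 0.19). Cox7a2 (0.43) and Cox7b (0.42) passed, but the other probe set of Cox7b did not (0.225, limma adjusted p = 0.136). Among the 8 restricted isoforms 6 were lower (median -0.26). Of those, Cox8c, a testis isoform (-0.46, adjusted p = 0.000931), Ndufa4l2, the hypoxia-induced paralogue of Ndufa4 (-0.43, adjusted p = 0.0125), and Cox4i2, best known from lung (-0.31, adjusted p = 0.0373), passed, and Cox6b2, a testis isoform, was higher (0.42, adjusted p = 0.0258). The values of Cox8c (5.1 to 5.3 in NP female grafts, 5.6 to 5.7 in NP islets) lay below the array medians of 5.9 to 6.0. Those of Cox6b2 (6.0 to 6.2 and 5.5 to 5.8) and Ndufa4l2 (5.7 to 6.0 and 6.2 to 6.5) lay near them. Whether these genes are expressed in these samples was not tested. The mean of 14 hypoxia-induced genes, a list without Ndufa4l2, was 7.11 to 7.24 in NP female grafts and 6.93 to 7.04 in NP islets. The part of hypoxia in these differences was not tested. Cox6a2, best known from heart and skeletal muscle, ranged from 7.4 to 8.9 in NP female grafts and from 8.4 to 9.0 in NP islets and did not pass (-0.38, adjusted p = 0.306). The muscle isoforms Cox7a1 (0.02) and Cox8b (-0.13) did not pass.

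At P12.5 the difference between female grafts and islets held 1 call among the 93 genes, against 4.05% of all probe sets. Cox5b, the zinc-binding subunit 5b of complex IV, measured 9.1, 9.0 and 9.0 in P12.5 female grafts and 9.7, 9.8, 9.7 and 9.6 in P12.5 islets, with no overlap. The difference was -0.67 ± 0.13 (SE, 1.59-fold, limma adjusted p = 0.00439), and it was called in 7 of 7 removals and with the kidney markers as a covariate. The mean of those markers did not overlap between P12.5 female grafts (5.97 to 7.23) and P12.5 islets (5.51 to 5.58). That fit could hardly separate it from the group, so the kept call cannot be read as independent of kidney tissue. Without the fold minimum Cox6b2 passed too, 2 of 93 genes against 6.75% of all probe sets. It measured 6.2, 6.0 and 6.2 in P12.5 female grafts and 5.6, 5.5, 5.8 and 5.7 in P12.5 islets (0.48 ± 0.13, adjusted p = 0.0347). Cox6a2 (-0.57, adjusted p = 0.210) and Ndufa1 (-0.38, adjusted p = 0.221) had the next lowest values and Cox4i1 (0.38, adjusted p = 0.0787) the next highest. Of the 93 genes 30 were higher and 60 lower (median -0.08, and -0.07 over all genes), 4 and 9 of them without overlap (7.73% and 11.7% of all probe sets), and 6 of 28 kidney markers were called higher (median 1.22).

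Male grafts share no array with the comparison of NP female grafts and NP islets, so their pregnancy values could be set beside it. Over the 93 genes the 2 sets of differences correlated at a Pearson r of -0.65 (Spearman rho -0.62), with opposite signs in 60 genes and the same sign in 25. Over all 19938 genes r was -0.21 (rho -0.38), with 12209 opposite and 6459 the same. This is a description across genes, which share arrays and are not independent replicates. Ndufa1, which differed most between NP female grafts and NP islets, was most like Polr2g, a subunit of RNA polymerase II (r = 0.971 over the 20 arrays), Ap2m1 (0.961) and Gars (0.951), none of them among the 93 genes.

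**Figure D5:**
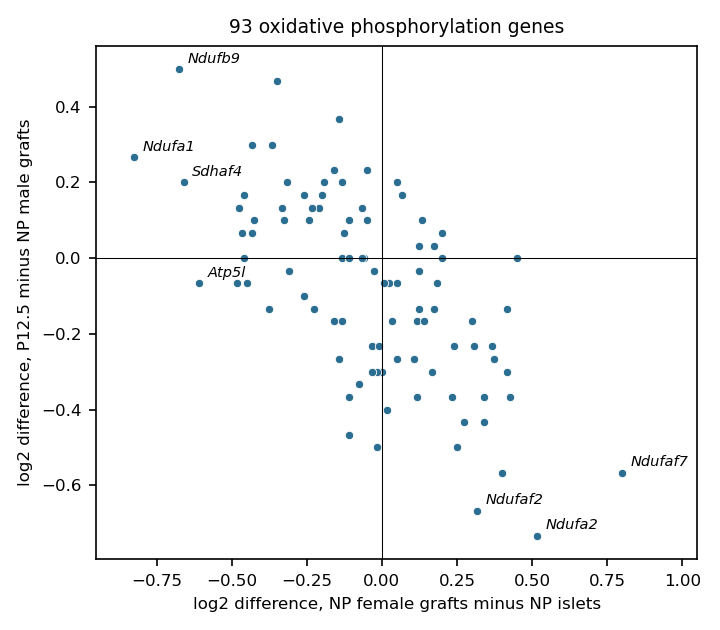
Each point is 1 of the 93 genes, with the log2 difference of NP female grafts minus NP islets on the x axis and that of P12.5 minus NP male grafts on the y axis. The values run in opposite directions (r = -0.65), with 60 genes of opposite sign and 25 of the same sign.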

How the data were processed

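RNA from 20 mouse islet or islet graft samples was measured on Affymetrix MoGene 1.0 ST arrays. The authors summarised the probes by RMA (aroma.affymetrix), and what the authors deposited is a table of log2 levels by probe set and array, rounded to 1 decimal, which leaves ties between arrays. No scanner files were used here. The number of arrays limits the precision. Groups came from the sample titles. The genes and the gene lists were chosen with earlier results of these data known. Among probe sets annotated to 1 symbol, the brightest on average stood for its gene, and symbols were matched to RefSeq by Entrez identifier for 93 of 93. Of these, 75 had 1 probe set and 18 several. Genes with processed copies elsewhere in the genome may share signal with them and are uncertain to that extent.

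limma 3.58.1 (R 4.3.3, lmFit and eBayes) was fitted to all 35511 probe sets, on 8 arrays for islets, 12 for grafts and 20 for grafts against islets, with Benjamini-Hochberg adjustment over all probe sets. A call needed an adjusted p under 0.05 and a fold of at least 1.5. The fits were tested on simulated data. Promoters were searched and plots drawn with Python 3.11.15 and matplotlib 3.10.9. Genes were named by rule: the called genes and the 3 highest and 3 lowest of each comparison, the core subunits, tissue isoforms and c subunit paralogues. Alternatives were each array left out, no fold minimum, other scaling, low probe sets removed, all probe sets of a gene averaged, an intensity trend, other sets of arrays in the fit, the replicate number as a block and the kidney markers as a covariate.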

Additional observations from a re-analysis of the deposited data

Results flagged for a closer look

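In 12 of the 82 groups of 4 islet arrays tested, 1 array stood apart from the others by Dixon's criterion. Chance meets it in about 1 in 20 groups where values are not rounded. For single genes the other 3 arrays were tied at the 1-decimal rounding in each case, which meets the criterion at any gap. The count of 12 therefore cannot be set against that rate. The mean level of the complex I subunits was 7.98 on P12.5 islet array 4 and 8.11 to 8.14 on the other P12.5 islet arrays. On P12.5 islet array 3, Ndufs5 was at 8.3 (others 8.1), Cox7a2l at 9.2 (others 9.0) and Cox4i2 at 6.4 (others 6.5). On P12.5 islet array 2, Cox6b1 was at 9.1 (others 9.0) and Cox7a2 at 7.2 (others 7.0). On NP islet array 4, Cox6b1 was at 8.6 (others 8.8), Cox4i2 at 6.6 (others 6.3), Cox8c at 5.7 (others 5.6) and Ndufc2 at 9.1 (others 9.3). Ndufa3 was at 7.9 on NP islet array 3 (others 7.7) and Uqcrc2 at 9.5 on NP islet array 2 (others 9.4). Groups of 3 arrays were not tested in this way.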

How the results depend on the processing

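No called difference changed sign, and no median over the 93 genes moved by more than the spread between arrays of a group (SD 0.112). Medians near 0 did change side, and with them the balance of higher and lower genes. It turned in grafts of both sexes (52 and 39) to 39 and 53 with array medians subtracted, between NP female grafts and islets (40 and 52) to 47 and 46 with array medians subtracted, 49 and 44 with the kidney covariate and 52 and 39 without NP female graft array 3, and between male and female NP grafts (64 and 20) to 34 and 51 without NP female graft array 3. Of the counts of called genes, dropping the fold minimum gave 3 in islets (0 with it), 14 in grafts of both sexes (3 with it), 28 between NP female grafts and NP islets (5 with it) and 2 between P12.5 female grafts and islets (1 with it). Genes passing the adjusted p alone numbered 3 in islets, and 5 with the intensity trend or with low probe sets removed, 10 with all probe sets averaged, and 0 with the replicate block or in a fit on all 20 arrays. That fit gave 16 in female grafts (4 otherwise), 9 in male grafts (1 otherwise) and 26 in both sexes (14 otherwise), and a fit on the compared arrays alone gave 16 between NP female grafts and islets (28 otherwise). Whole-array shares passing the adjusted p alone were not counted under these alternatives. In female grafts (4 called) array medians subtracted, a renewed quantile normalization and the replicate block each gave 2, and the kidney covariate 0. In male grafts (1 called) array medians subtracted gave 2, the replicate block 0 and a fit on all 20 arrays 2. Between NP female grafts and islets (5 called) averaging all probe sets of a gene gave 3 and the kidney covariate 0. In female grafts and in this comparison the mean of the kidney markers did not overlap between the groups. Calls lost with that covariate therefore cannot be read as an effect of kidney tissue. The test of pregnancy values between female grafts and islets gave 1 when fitted on the compared arrays alone (0 otherwise). With single arrays left out the counts were 0 to 2 in female grafts, 0 to 2 in male grafts, 1 to 3 in both sexes and 4 to 8 between NP female grafts and islets. Subtracting array medians moved the share of higher calls over all probe sets from 49.3% to 37.4% in female grafts, from 51.4% to 23.4% in male grafts (331 calls and 542) and from 49.6% to 32.8% in both sexes, and, in the test between grafts and islets, from 66.7% to 40.0% (18 calls and 10, and 32 after quantile normalization). The causes were not tested. Deviations of same-numbered samples correlated at r -0.24 to 0.37, over 0.1 in 5 of 22 pairs and in all pairs of no comparison, so the numbers were not read as pairs. Between P12.5 male and female grafts each number correlated best with its own (r 0.04, 0.28 and 0.37), a hint from the data and not the design, and there the replicate block left 0 genes passing. Leaving out NP islet array 1, singled out after its lower top value was seen, changed no count of calls by over 1.5 times. Among 18 genes with several probe sets, 4 had probe sets of differing sign or at 0 in grafts of both sexes, 2 in islets and 1 in female grafts.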
